A study of Amolops torrentis with 15 samples.

Results

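CYP19A1, SRD5A1, HSD17B12 and GPER1, 4 genes of steroid synthesis and estrogen reception, were followed in whole-brain RNA of female Amolops torrentis, a torrent frog. CYP19A1 is aromatase, the enzyme that turns androgens into estrogens. SRD5A1 is a steroid 5-alpha-reductase, which turns testosterone into the stronger androgen dihydrotestosterone and starts the route from progesterone to allopregnanolone. HSD17B12 is a 17-beta hydroxysteroid dehydrogenase. It is best known for reducing 3-oxoacyl-CoA in the elongation of very long fatty acids, and it has also been reported to turn estrone into estradiol. GPER1 is a membrane receptor coupled to G proteins that responds to estrogens. The members were all features (clustered transcripts) whose deposited Swiss-Prot match carried 1 of these 4 gene symbols. They came to 5 features of 44351 in all, of which 18523 carried any symbol (10546 symbols). CYP19A1, SRD5A1 and GPER1 had 1 feature each and HSD17B12 had 2.

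The study measured brain mRNA after sexual cues that a female could hear, see or both. It had 15 libraries, with 3 in each of 5 groups. There were 3 stimulus groups (acoustic, visual and audiovisual) and 2 contrast groups (dark contrast and blank contrast). The labels name the stimulus of each group but do not say what the 2 contrast groups were given, which of them is the control of which stimulus, or whether a library is 1 frog or a pool. The p-values therefore measure the spread between these libraries, which may be partly technical.

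Steroid hormones reach the brain from the gonads and are also made or altered inside it. Aromatase and the reductases act on the same androgens and direct them to estrogens or to stronger androgens, so the enzymes a region holds shape which hormone its neurons meet. In songbirds and teleost fish the brain is a major site of aromatase, and in fish the enzyme sits mainly in radial glia. Estrogens act slowly through nuclear receptors and quickly through membrane receptors such as GPER1, which signals through cyclic AMP and the MAP kinases.

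Total counts ran from 12071194 to 16829356 per library. Neuron markers were present (9 of 10 symbols had a feature, with RBFOX3 lacking one), with summed levels of 6983 to 7963 CPM (counts scaled to a common library total, with TMM factors). Oligodendrocyte markers summed to 5842 to 9744 CPM (5 of 8 symbols had a feature). Of 10 symbols that mark steroid cells of the ovary and adrenal, 0 had a feature in the table. Over all groups edgeR's quasi-likelihood F test called 0 of 42619 features (0%) at an adjusted p under 0.05 and DESeq2's likelihood ratio test called 206; edgeR gave 2019 (4.74%) an unadjusted p under 0.05. No member was called in any comparison by any tool or setting tried.

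The deposited matches of the 5 features were to the named genes throughout, but of unequal strength. The CYP19A1 feature (Cluster-46846.206744) was 2314 bases long and matched the aromatase of the zebra finch (Taeniopygia guttata) in Swiss-Prot, with a deposited score of 1838, and that of the cane toad (Rhinella marina) in the NR protein collection, with a score of 2215. The SRD5A1 feature (Cluster-46846.101118, 1201 bases) matched the bovine enzyme with a score of 730, and the type 1 reductase of the frog Rugosa rugosa with 1178. The GPER1 feature (Cluster-46846.118349, 2526 bases) matched the human receptor with 1366, and that of Xenopus tropicalis with 1498.

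The 2 HSD17B12 features were of like length. The more abundant (Cluster-46846.184936, 1392 bases) matched the Xenopus tropicalis enzyme with a Swiss-Prot score of 1263, and the type 12 enzyme of Rugosa rugosa in NR with 1509. The less abundant (Cluster-46846.137986, 1329 bases) matched the duck enzyme with 598, and a 12-B-like enzyme of the coelacanth (Latimeria chalumnae) in NR with 778. Whether they come from 1 gene or from 2 related genes is not given in the sources used here. Values per feature and their sum are therefore both uncertain as measures of 1 gene. Another 10 features without a member symbol had a best nucleotide match whose description names aromatase, with scores of 36 to 199. They were not counted as members.

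Per unit of length HSD17B12 was on average the highest of the 4 genes and CYP19A1 the lowest, with SRD5A1 and GPER1 near each other between them. In FPKM (deposited fragment values scaled for transcript length and depth), the more abundant HSD17B12 feature averaged 65.3 (42.9 to 117 over the 15 libraries) and the less abundant 25.4 (8.48 to 36.4). SRD5A1 averaged 9.55 FPKM (5.63 to 17.8) and GPER1 7.05 FPKM (5.38 to 8.44). CYP19A1 was lowest, at 2.47 FPKM (1.16 to 4.79), from 38 to 156 counts per library. Ranked among the 42619 features whose mean FPKM reached 1, HSD17B12 stood at percentiles 96.0 and 88.4, SRD5A1 at 70.04, GPER1 at 61.3 and CYP19A1 at 24.2. All 5 members passed this filter and were above 1 FPKM in every library.

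**Figure D1:**
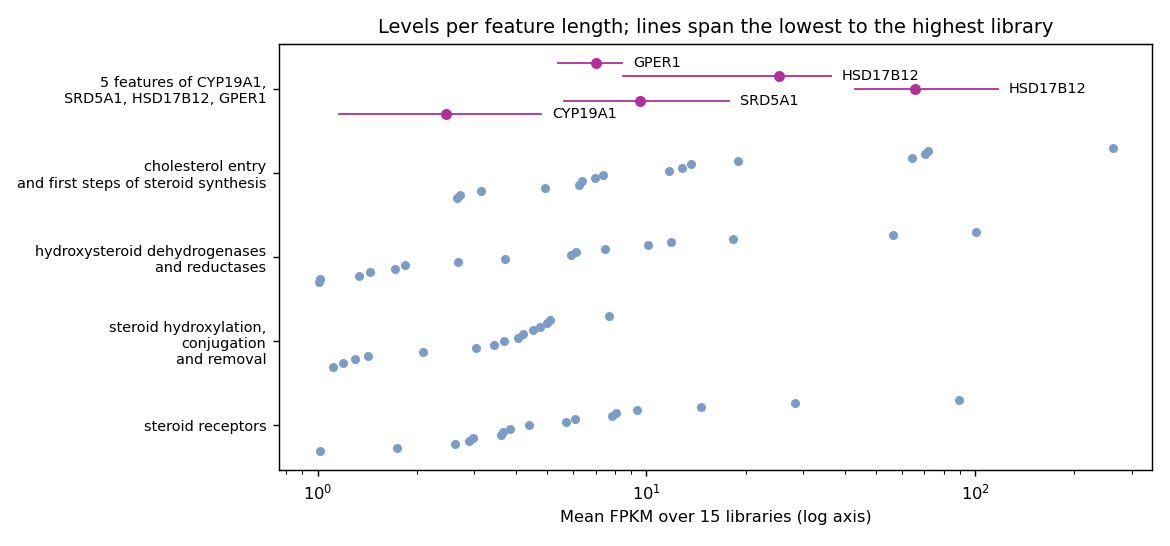
Mean FPKM over 15 libraries (log axis) of the 5 member features (purple, with lines from the lowest to the highest library) and of the features of 4 lists of steroid genes (blue, 1 point a feature). CYP19A1, at 2.47 FPKM, lies at the low end and the more abundant HSD17B12 feature, at 65.3 FPKM, near the high end of these lists.

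CYP19A1 was higher in the audiovisual brains than in any other library of the study, but the difference did not pass adjustment over all features. Its level was 9.81, 11.04 and 7.77 CPM in the 3 audiovisual libraries. In dark contrast libraries it was 3.46, 3.65 and 6.97 CPM, and in blank contrast 4.03, 6.17 and 5.60 CPM. The visual libraries had 7.11, 5.26 and 3.04 CPM, and the acoustic libraries 2.71, 3.61 and 5.69 CPM. All 3 audiovisual libraries were thus above the other 12, while the other 4 groups overlapped each other throughout. This pattern was picked after the values were seen. Of all features, 89 (0.209%) had their 3 audiovisual libraries above the other 12. That share covers this group and direction only, and the like pattern in another group or direction could also have been picked.

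Group means of CYP19A1, in order, were 9.54 ± 1.65 CPM in audiovisual, 5.27 ± 1.11 in blank contrast, 5.14 ± 2.04 in visual, 4.69 ± 1.97 in dark contrast and 4.003 ± 1.53 in acoustic brains (SD, n = 3 in each). The step from audiovisual to blank contrast was the only one between neighbours in this order where the libraries did not overlap. In bulk tissue, fewer cells that make the enzyme and less RNA in each of them cannot be told apart.

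The F test over the 5 groups gave CYP19A1 an unadjusted p of 0.0314 (edgeR adjusted p = 0.999), and 1 of the 5 members was under 0.05 there against 4.74% of all features. The widest gap was between audiovisual and acoustic brains, with a log2 fold change of 1.25 (SE 0.375), or 2.38-fold, at an unadjusted p of 0.00495 (edgeR adjusted p = 0.991). Against dark contrast the log2 fold change was 1.02 (SE 0.374), at an unadjusted p of 0.0161 (edgeR adjusted p = 0.934). Against visual it was 0.89 (SE 0.371) and against blank contrast 0.85 (SE 0.371), with unadjusted p of 0.0317 and 0.0374 in edgeR. CYP19A1 was the sole member under an unadjusted p of 0.05 in each of these 4 comparisons, which share the same 3 audiovisual libraries. The share of all features under it was 4.9% against acoustic, 5.23% against dark contrast, 4.57% against visual and 4.54% against blank contrast. The shares of all features whose groups did not overlap were 10.3%, 10.7%, 9.83% and 9.98%. In the other 6 pairs of groups 0 of the 5 members had an unadjusted p under 0.05 and 0 had groups that did not overlap. Over all features the share under that p was 5.11% for acoustic and 5.3% for visual against dark contrast, 4.42% for acoustic and 4.66% for visual against blank contrast, 5.01% for acoustic against visual and 5.68% for dark against blank contrast. The shares that did not overlap in these 6 were, in the same order, 10.2%, 10.6%, 9.72%, 10.4%, 10.4% and 11.1%.

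For either cue alone, the CYP19A1 differences were close to their standard errors or under them. The log2 fold change was -0.23 for acoustic against dark contrast, -0.40 for acoustic against blank contrast, 0.14 for visual against dark contrast and -0.03 for visual against blank contrast. Their standard errors were 0.374 to 0.378. A comparison added after the values were known set the audiovisual level against the sum of the acoustic and visual differences from the mean of the contrast groups. It gave a log2 value of 1.20 (SE 0.498), at an unadjusted p of 0.0304 (edgeR adjusted p = 0.9998), where 4.51% of all features had an unadjusted p under 0.05. Over the 3 stimulus groups together against the 2 contrast groups, the log2 fold change was 0.23 (SE 0.243), at an unadjusted p of 0.367 in edgeR. With 1 library left out it ran from 0.11 (without acoustic 3) to 0.43 (without dark contrast 3), and it was 0.15 or less without dark contrast 1, dark contrast 2, blank contrast 1 or visual 1. In that comparison 0 of the 5 members had an unadjusted p under 0.05, against 4.7% of all features.

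**Figure D2:**
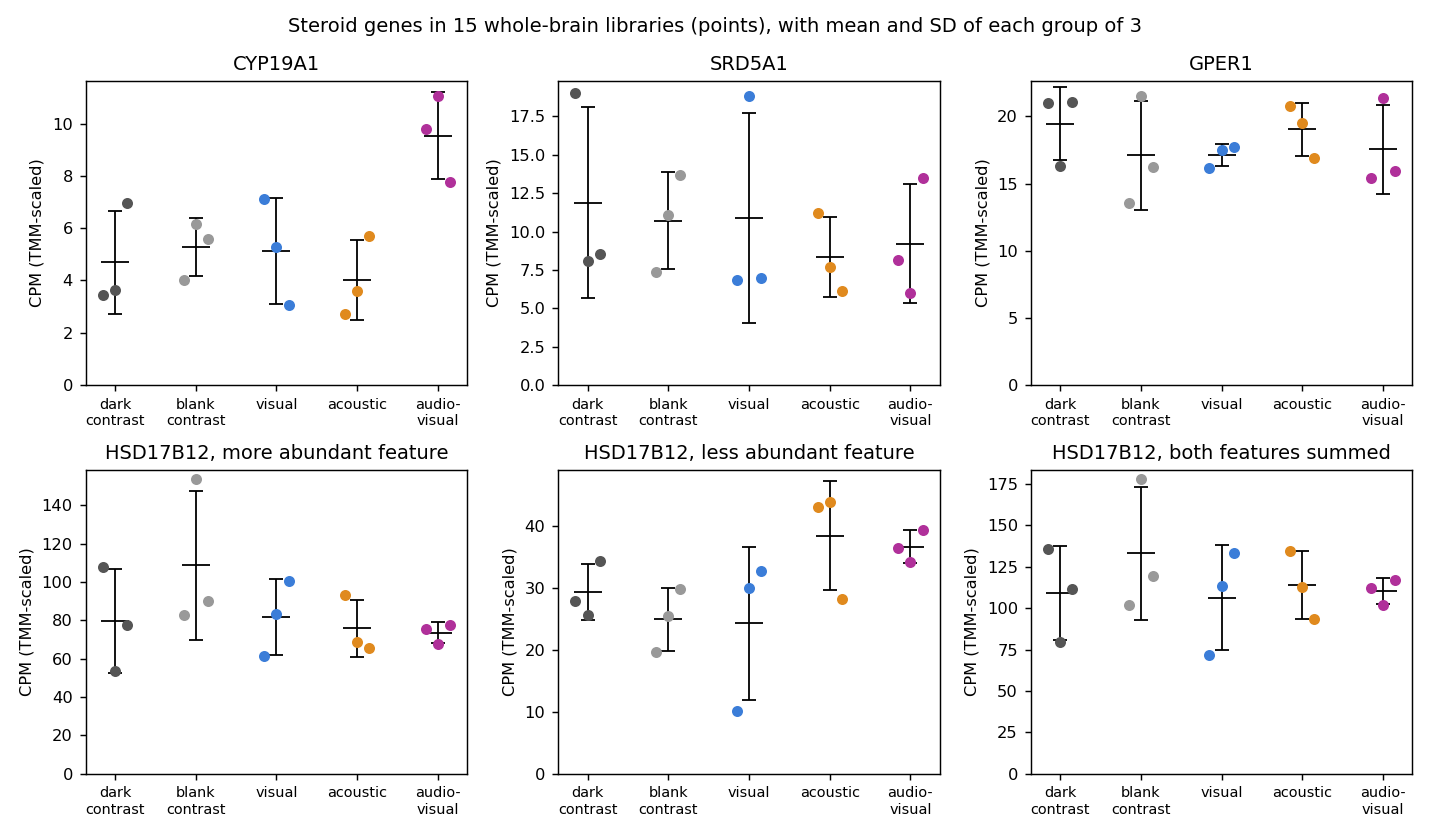
CPM of the member features and of the HSD17B12 sum in each of the 15 libraries (points), with the mean (long bar) and SD of each group of 3. The 3 audiovisual libraries of CYP19A1, at 7.77 to 11.04 CPM, lie above the other 12, and groups overlap in most other panels.

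The 4 audiovisual differences of CYP19A1 kept their direction in all settings tried, which reuse the same libraries and are not separate evidence. Leaving out a library could not turn these differences, as every audiovisual library lay above every other library. The settings were 23 alternatives for each difference. They include limma on log2(FPKM + 1), whose differences are on another scale than log2 fold changes of counts. Over 23 alternatives the log2 difference of audiovisual against acoustic ran from 0.93 to 1.59 (1.04 to 1.59 with 1 library left out). The unadjusted p was under 0.05 in 23 of them and the adjusted p 0.253 or more. Against dark contrast the log2 difference ran from 0.77 to 1.42, with an unadjusted p under 0.05 in 20 of 23. Against blank contrast it ran from 0.65 to 0.98 and against visual from 0.62 to 1.20, with an unadjusted p under 0.05 in 19 of 23 for each.

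Markers of other regions and cells varied between these libraries too. The pituitary lies under the brain and can be taken with it, and its hormone genes pomc and cga (PRL, GH1, GH, TSHB, LHB and FSHB had no feature) summed to 2474, 55.6 and 9599.98 CPM in audiovisual libraries 1 to 3. In the other groups the sum ran from 404 to 5069.56 CPM in dark contrast, 22.4 to 70.6 in blank contrast, 19.6 to 113 in visual and 169 to 1945 in acoustic libraries. Audiovisual library 2 had the highest CYP19A1 level of the study, and its pituitary hormone sum lay inside the range of the blank contrast and visual libraries. The sums of audiovisual libraries 1 and 3 lay above that range. The part of pituitary tissue in the CYP19A1 levels was not tested.

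Markers of the hypothalamus and preoptic area, where frog brains hold much of their aromatase, summed to 110 to 138 CPM in audiovisual libraries. They summed to 120 to 159 in dark contrast, 121 to 141 in blank contrast, 133 to 179 in visual and 159 to 177 in acoustic libraries (6 of 12 symbols had a feature; AVP, OXT, TRH, AGRP, NPVF and SIM1 had none). Markers of radial glia and astrocytes summed to 1780 to 3089 CPM in audiovisual, 2235 to 3426 in dark contrast, 1694 to 3254 in blank contrast, 2710 to 3629 in visual and 2499 to 3561 in acoustic libraries (5 of 11 symbols; GFAP, VIM, S100B, NES, AQP4 and ALDH1L1 had none). The audiovisual libraries lay below the acoustic ones in the hypothalamic sum and overlapped every other group in both sums. Between audiovisual and acoustic libraries 10.3% of all features did not overlap, and each of the 7 features of the hypothalamic sum did overlap. Its most abundant feature, of NKX2-1, had 21.5, 66.3 and 67.1 CPM in audiovisual and 64.3, 88.9 and 105 CPM in acoustic libraries. In the radial glia and astrocyte sum, 1 GLUL feature was on average the largest part, at 1794 CPM, with 588 CPM in audiovisual 3. Single glial features went both ways between audiovisual and acoustic libraries, where 10.3% of all features did not overlap. SLC1A2 was higher, at 46.4 to 67.1 against 25.2 to 44.3 CPM. A less abundant GLUL feature was lower, at 28.4 to 32.4 against 38.4 to 46.5 CPM, and the other glial features overlapped. The part of any of these cells in the CYP19A1 levels was not tested.

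**Figure D3:**
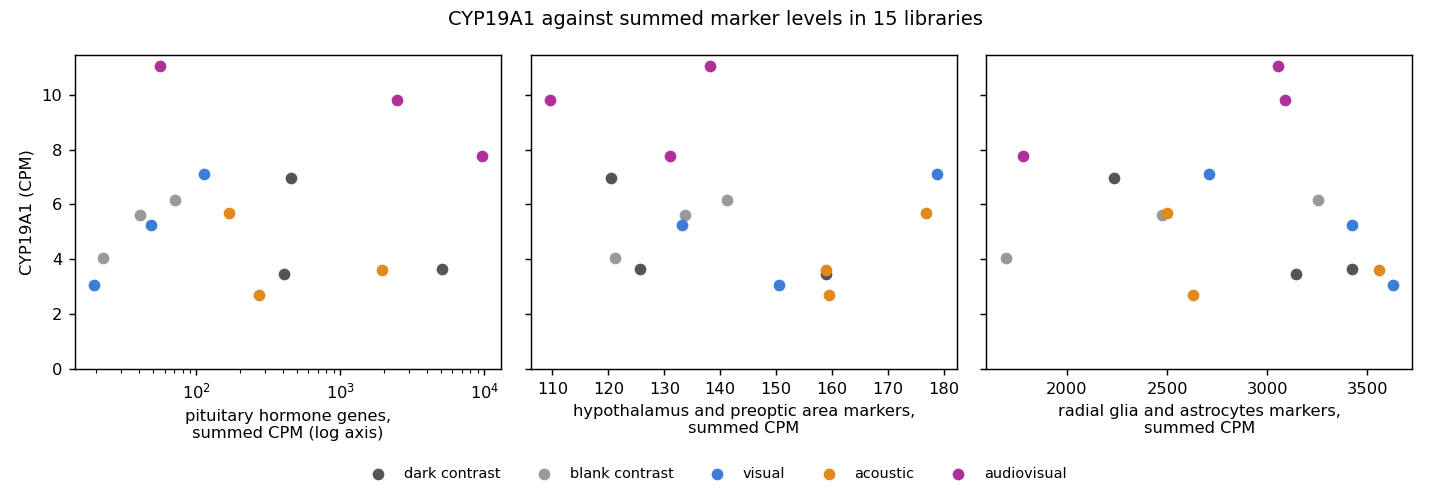
CYP19A1 CPM of each of the 15 libraries against the summed CPM of the pituitary hormone genes pomc and cga (log axis) and of markers of the hypothalamus and preoptic area, and of radial glia and astrocytes. The 3 audiovisual points lie above the others in CYP19A1. Their pituitary hormone sums are 2474, 55.6 and 9599.98 CPM.

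SRD5A1, the other enzyme that draws on the androgens, did not separate any pair of groups. Its level was 19.1, 8.06 and 8.51 CPM in dark contrast, 7.37, 11.1 and 13.7 CPM in blank contrast and 6.86, 18.8 and 6.97 CPM in visual libraries. It was 11.2, 7.72 and 6.10 CPM in acoustic and 8.11, 5.98 and 13.5 CPM in audiovisual libraries. Dark contrast 1 and visual 2 stood well above the rest of their groups, and all 10 pairs of groups overlapped. Means were 11.9 ± 6.22 CPM in dark contrast, 10.9 ± 6.87 in visual, 10.7 ± 3.16 in blank contrast, 9.20 ± 3.88 in audiovisual and 8.35 ± 2.62 in acoustic brains (SD, n = 3 in each).

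The log2 fold change of dark contrast against acoustic, the highest against the lowest mean of SRD5A1, was 0.51 (SE 0.465), at an unadjusted p of 0.295 (edgeR adjusted p = 0.984). The direction rested on 1 library: without dark contrast 1 it was -0.01. It was 0.78 without acoustic 1 and 0.32 without acoustic 3. For the 3 stimulus groups against the 2 contrast groups it was -0.26 (SE 0.298), at an unadjusted p of 0.401 in edgeR, and 0.00094 without dark contrast 1, -0.15 without blank contrast 3 and -0.47 without visual 2. The F test gave an unadjusted p of 0.822 in edgeR.

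The libraries of every pair of groups overlapped in the total of HSD17B12, while its 2 features had their highest means in different groups, blank contrast for the more abundant and acoustic for the less abundant. Summed over both, its level was 136, 79.3 and 112 CPM in dark contrast, 102, 178 and 119 CPM in blank contrast and 71.7, 114 and 134 CPM in visual libraries. It was 135, 113 and 93.7 CPM in acoustic and 112, 102 and 117 CPM in audiovisual libraries. Blank contrast 2 was the highest library, and neighbouring groups overlapped throughout. Group means ran from 133 ± 40.1 CPM in blank contrast to 106 ± 31.6 in visual brains (SD, n = 3 in each), a log2 fold change of 0.33 (SE 0.25), at an unadjusted p of 0.214 (edgeR adjusted p = 0.9997). It was 0.06 without blank contrast 2, 0.11 without visual 1 and 0.52 without visual 3.

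The more abundant HSD17B12 feature had 108, 53.7 and 77.5 CPM in dark contrast, 82.5, 154 and 89.9 CPM in blank contrast and 61.5, 83.1 and 101 CPM in visual libraries. It had 93.1, 68.6 and 65.7 CPM in acoustic and 75.4, 67.5 and 77.8 CPM in audiovisual libraries. Blank contrast was above audiovisual with no overlap, which was 1 of its 10 pairs of groups, where 9.98% of all features did not overlap in that comparison. The means were 109 ± 39.0 and 73.5 ± 5.39 CPM (SD, n = 3 in each), and the log2 fold change was 0.56 (SE 0.276), at an unadjusted p of 0.0611 (edgeR adjusted p = 0.9998). Without blank contrast 2 it was 0.23. Visual (81.8 ± 19.6), dark contrast (79.7 ± 27.2) and acoustic (75.8 ± 15.02 CPM) lay between them.

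The less abundant HSD17B12 feature had 27.9, 25.6 and 34.4 CPM in dark contrast, 19.6, 25.4 and 29.8 CPM in blank contrast and 10.2, 29.9 and 32.8 CPM in visual libraries. It had 43.0, 43.9 and 28.2 CPM in acoustic and 36.4, 34.1 and 39.3 CPM in audiovisual libraries. Its audiovisual libraries were above those of blank contrast and of visual with no overlap, where 9.98% and 9.83% of all features did not overlap, and visual 1 was the lowest of all 15. Means were 38.4 ± 8.81 CPM in acoustic, 36.6 ± 2.61 in audiovisual, 29.3 ± 4.53 in dark contrast, 24.9 ± 5.10 in blank contrast and 24.3 ± 12.3 in visual brains (SD, n = 3 in each). Acoustic against visual gave a log2 fold change of 0.66 (SE 0.332), at an unadjusted p of 0.0664 (edgeR adjusted p = 0.996). Without visual 1 it was 0.29.

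As a share of the summed FPKM of both HSD17B12 features, the less abundant one made up 33.9%, 34.9% and 34.9% in audiovisual and 32.9%, 40.3% and 31.2% in acoustic libraries. It made up 21.5%, 33.5% and 32.0% in dark contrast, 14.9%, 27.6% and 25.6% in visual, and 20.1%, 14.9% and 25.99% in blank contrast libraries. The 6 acoustic and audiovisual libraries lay at 31.2% or more, above all visual and blank contrast libraries and overlapping the dark contrast ones. This grouping was picked after the values were seen. How often other pairs of features of 1 symbol separate in this way was not computed. Mean shares were 34.8 ± 4.85% in acoustic, 34.5 ± 0.582% in audiovisual, 29.0 ± 6.57% in dark contrast, 22.7 ± 6.84% in visual and 20.3 ± 5.54% in blank contrast brains (SD, n = 3 in each). This measure was added after the values of the features had been seen. A permutation test of the group labels (100000 resamples) gave p = 0.0295 for the spread of the 5 means, with no adjustment for the other measures looked at. It was above 0.05 with any of 5 libraries left out: blank contrast 1 (0.0545), blank contrast 2 (0.0553), acoustic 2 (0.0515), audiovisual 2 (0.0505) or audiovisual 3 (0.0504).

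**Figure D4:**
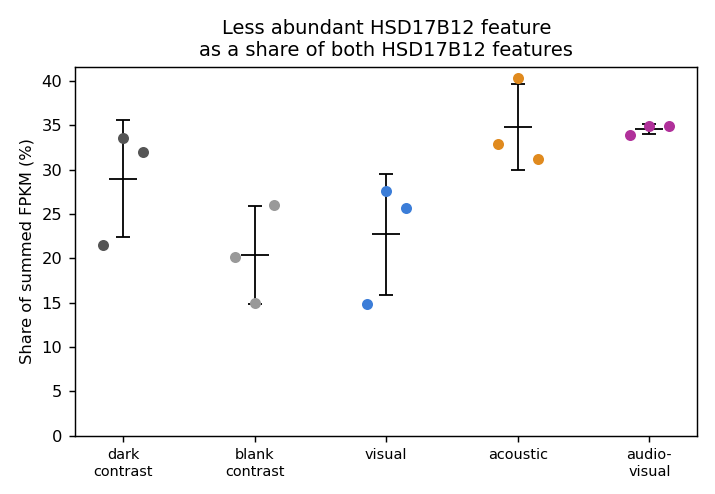
Share of the less abundant feature in the summed FPKM of both HSD17B12 features (percent), per library (points), with the mean and SD of each group of 3. The acoustic and audiovisual libraries lie from 31.2% to 40.3%, the dark contrast libraries from 21.5% to 33.5%, and the visual and blank contrast libraries from 14.9% to 27.6%.

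GPER1, the receptor, was the steadiest of the 4 genes. Its level was 21.0, 16.3 and 21.1 CPM in dark contrast, 13.6, 21.6 and 16.2 CPM in blank contrast and 16.2, 17.5 and 17.7 CPM in visual libraries. It was 20.8, 19.5 and 16.9 CPM in acoustic and 15.4, 21.4 and 15.9 CPM in audiovisual libraries. The highest and the lowest library of the study were both in blank contrast, and all 10 pairs of groups overlapped. Means were 19.5 ± 2.72 CPM in dark contrast, 19.0 ± 1.98 in acoustic, 17.6 ± 3.31 in audiovisual, 17.1 ± 0.821 in visual and 17.1 ± 4.07 in blank contrast brains (SD, n = 3 in each). Dark against blank contrast gave a log2 fold change of 0.18 (SE 0.20), at an unadjusted p of 0.371 (edgeR adjusted p = 0.954). It was 0.04 without blank contrast 1, 0.39 without blank contrast 2 and 0.30 without dark contrast 2. The edgeR F test gave an unadjusted p of 0.812. For the stimulus against the contrast groups the log2 fold change was -0.03 (SE 0.129).

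The members differed in how much they varied from library to library. Within groups the SD of log2 CPM was 0.224 for GPER1, 0.375 for the more abundant and 0.479 for the less abundant HSD17B12 feature, 0.468 for CYP19A1 and 0.613 for SRD5A1. Among 5045 features within 0.5 log2 CPM of its own level, GPER1 stood at percentile 29.95 of this spread, and SRD5A1 at percentile 82.6 among 6331. The HSD17B12 features were close to SRD5A1 on this measure, with the more abundant at percentile 82.4 of 1565 features and the less abundant at 81.6 of 3823. CYP19A1 stood at percentile 57.3 of 7203. Between groups, the SD of the 5 mean log2 levels was 0.488 for CYP19A1, at percentile 89.5 of its 7203 features of like level. By percentile, though not by SD, the HSD17B12 features came close to it. The less abundant had an SD of 0.349 at percentile 87.8 and the more abundant 0.208 at percentile 81.8. The SD of means of 3 libraries also holds the spread within groups. The edgeR F test gave the less abundant feature an unadjusted p of 0.202 and the more abundant 0.282. SRD5A1 had 0.176, at percentile 42.5, and GPER1 0.0911, at percentile 16.1.

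**Figure D5:**
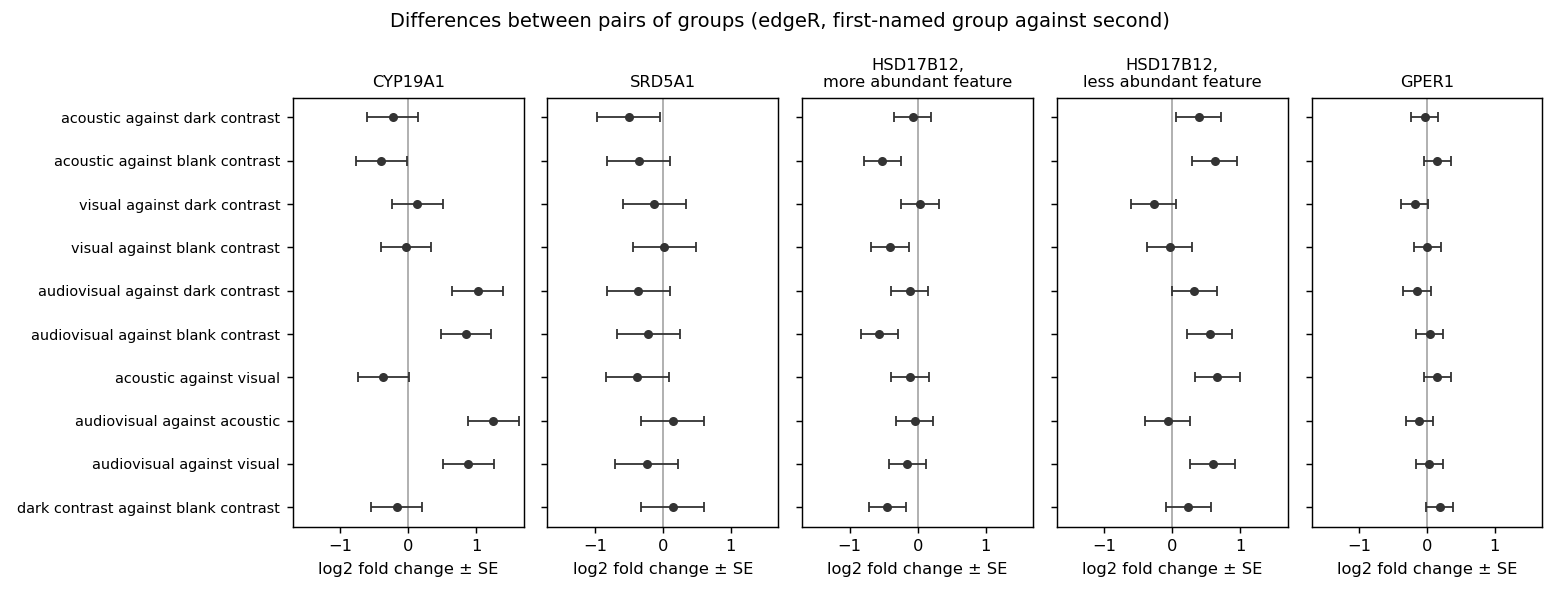
Log2 fold change (point) and its standard error (bar) of each member feature in the 10 pairs of groups, first-named group against the second, from edgeR. The 4 audiovisual comparisons of CYP19A1, from 0.85 to 1.25, are the largest in its panel, and GPER1 stays within 0.18 of 0 in every pair.

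Across the 15 libraries, 6 pairs of the 4 genes were compared on the log2 CPM of their sums. SRD5A1 and HSD17B12 varied most alike by rank, with a Pearson r of 0.48 (permutation p = 0.0699, adjusted over the 6 pairs 0.210) and a Spearman rho of 0.66 (permutation p = 0.00891, adjusted 0.0535). Neither passed the threshold of 0.05 after adjustment. Without the 2 libraries farthest from the median of SRD5A1 r was 0.52, and between deviations from the group means it was 0.53. HSD17B12 and GPER1 had an r of 0.50 (permutation p = 0.0565, adjusted 0.210) and a rho of 0.41 (permutation p = 0.134, adjusted 0.328), with an r of 0.36 without the 2 farthest libraries and 0.66 between deviations from the group means.

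No correlation of CYP19A1 with the other 3 genes passed the threshold. Its r was -0.19 with SRD5A1 (permutation p = 0.487), -0.21 with HSD17B12 (permutation p = 0.458) and -0.06 with GPER1 (permutation p = 0.840), and its rho -0.25, -0.38 and -0.14 (permutation p = 0.375, 0.164 and 0.630). After adjustment these p were 0.328 or more. Without the 2 libraries farthest from the median of CYP19A1 the 3 values of r were 0.0027, -0.08 and -0.16, and between deviations from the group means -0.26, -0.35 and 0.15. SRD5A1 and GPER1 had an r of 0.16 (permutation p = 0.573, adjusted 0.687), 0.01 without the 2 farthest and 0.19 between deviations, and a rho of 0.04 (permutation p = 0.903).

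Among 8953 other symbols with a mean of at least 5 CPM, those most like each gene over the 15 libraries were named by their r of log2 CPM, as a description. All points share the same 15 libraries. These symbols were picked for the highest of 8953 values of r, and how high such picks run by chance was not computed. For CYP19A1 they were KCTD2 (r = 0.91), DNM2 (0.85), which is dynamin 2, and GNAQ (0.83), a G protein subunit. For SRD5A1 they were ALKBH1 (0.83), FKBPL (0.82) and RPS15 (0.82), a ribosomal protein. For HSD17B12 they were NUPL2 (0.85), SAP18 (0.83) and RERG (0.80), and for GPER1 COPS4 (0.80), GAPDH (0.79), an enzyme of glycolysis, and ZNF773 (0.79).

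Of the rest of the pathway, the supply of cholesterol was well represented in the table, and the classical entry to steroid synthesis was not. Of 22 symbols for cholesterol synthesis and supply, 19 had a feature. Of 18 for the entry of cholesterol into mitochondria and the opening steps of synthesis, 12 had one. STAR, which carries cholesterol inward, CYP11A1, which makes pregnenolone, CYP17A1, which makes androgens, and HSD3B1 and HSD3B2, which make progesterone, had none; a gene with no feature is not analysed here. TSPO, a cholesterol-binding protein of the outer mitochondrial membrane, averaged 7.40 FPKM, STARD3, a carrier of cholesterol on endosomes, 6.99 FPKM, and DBI, a ligand of TSPO, 261 FPKM.

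No feature of these lists passed adjustment in any of the 13 comparisons. In the F test over the groups, 0 of 35 features of cholesterol synthesis and supply and 0 of 16 of the entry list had an unadjusted p under 0.05. The smallest unadjusted p in edgeR belonged to HMGCS1, an early enzyme of cholesterol synthesis (0.0709), LSS, lanosterol synthase (0.112), and srebf2, which drives the genes of the pathway (0.120). The LSS value is that of its least abundant feature, at 2.97 FPKM. Its most abundant feature, at 25.2 FPKM, had an unadjusted p of 0.543 in the edgeR F test. HMGCS1 had 39.2 ± 19.3 CPM in blank contrast, 34.0 ± 4.98 in audiovisual, 31.0 ± 11.9 in visual, 19.6 ± 12.8 in dark contrast and 16.2 ± 6.06 in acoustic brains (SD, n = 3 in each). In the entry list the smallest unadjusted p belonged to CYB5R3 (0.189), Tspo (0.202) and POR (0.239), the reductase that feeds electrons to aromatase and other microsomal P450 enzymes. POR had 2 features, and this p is that of the less abundant, at 4.91 FPKM; the more abundant, at 11.69 FPKM, had an unadjusted p of 0.942. The less abundant had 20.04 ± 4.80 CPM in dark contrast, 15.6 ± 5.06 in blank contrast, 14.6 ± 1.72 in acoustic, 12.3 ± 9.23 in audiovisual and 10.7 ± 0.914 in visual brains (SD, n = 3 in each). The median log2 fold change of the stimulus against the contrast groups was -0.04 for cholesterol synthesis, with 16 of 35 features above 0, and 0.02 for the entry list, with 9 of 16 above 0; it was -0.00089 over all features.

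Of other dehydrogenases and reductases, 12 of 27 symbols had a feature. TECR, which acts after HSD17B12 in the elongation of very long fatty acids, averaged 100 and 56.1 FPKM in its 2 features. HSD17B4, of peroxisomes, averaged 18.3 FPKM in its more abundant feature and HSD17B7, an enzyme of cholesterol synthesis, 11.8 FPKM in its own. In the F test 0 of 16 features had an unadjusted p under 0.05, with the smallest in edgeR at RDH5 (0.185), HSD17B8 (0.1995) and the less abundant Hsd17b4 feature (0.204). The median log2 fold change of the stimulus against the contrast groups was 0.03, with 10 of 16 above 0.

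Among enzymes that hydroxylate, conjugate or remove steroids, 6 of 19 symbols had a feature, and 1 of 15 features had an unadjusted p under 0.05 in the F test, against 4.74% of all features. It was a feature of Cyp27a1 (Cluster-46846.208603), the sterol hydroxylase of mitochondria, at 5.51 ± 1.03 CPM in dark contrast, 4.83 ± 0.944 in audiovisual, 3.77 ± 0.638 in visual, 3.21 ± 0.139 in acoustic and 2.69 ± 0.494 in blank contrast brains (SD, n = 3 in each). Its unadjusted p was 0.00658 (edgeR adjusted p = 0.991), and its dark contrast libraries, at 4.68 to 6.66 CPM, lay above those of blank contrast, at 2.13 to 3.06 CPM, in a pair of groups where 11.1% of all features did not overlap. A second CYP27A1 feature of like level (1.30 against 1.42 FPKM) had an unadjusted p of 0.523 in the edgeR F test. The next smallest unadjusted p in edgeR were those of a feature of CYP46A1, the cholesterol hydroxylase of neurons (0.163), and of ABCC1, an efflux pump (0.276). CYP7B1, which hydroxylates neurosteroids, averaged 4.997 FPKM. The median log2 fold change of the stimulus against the contrast groups was 0.01, with 9 of 15 above 0.

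Of the nuclear receptors for sex steroids, ESR2, the beta estrogen receptor, had a feature, and ESR1 and PGR had none. ESR2 averaged 1.75 FPKM (0.47 to 2.95), below the 7.05 FPKM of GPER1. Its level was 4.13, 3.58 and 5.59 CPM in dark contrast, 4.27, 3.05 and 2.84 CPM in blank contrast, 4.95, 5.96 and 4.33 CPM in visual, 5.68, 4.05 and 3.73 CPM in acoustic, and 1.20, 7.34 and 5.26 CPM in audiovisual libraries. The lowest and the highest library were both audiovisual. The edgeR F test gave it an unadjusted p of 0.790.

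The membrane progesterone receptor component PGRMC1 was the most abundant of the receptor list at 89.3 FPKM, with PGRMC2 at 28.2 FPKM. Of 17 features in this list 0 had an unadjusted p under 0.05 in the F test, with the smallest in edgeR at NR3C2, the mineralocorticoid receptor (0.127), and Esrra (0.133). The median log2 fold change of the stimulus against the contrast groups was 0.06, with 11 of 17 above 0. For the signalling partners of GPER1, 19 of 25 symbols had a feature and 0 of 37 features had an unadjusted p under 0.05, with Adcy8, an adenylate cyclase (0.140 in edgeR), and PLCB1, a phospholipase C (0.165), among the smallest. The Adcy8 and PLCB1 values are those of the least abundant features of these genes, at 1.51 and 1.99 FPKM. The most abundant features of Adcy8 and PLCB1, at 20.5 and 10.4 FPKM, had an unadjusted p of 0.431 and 0.608 in the edgeR F test. The median of the signalling partners was -0.06, with 12 of 37 above 0.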

How the data were processed

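Whole brain libraries were grouped by the stimulus in their labels. The authors' table held estimated counts of reads per clustered transcript, not normalized, per the file headers; 57.4% were whole to within 1e-06. It also held FPKM computed by the authors, feature length in bases and the match score of each description, deposited in the same table. For the assembler, aligner and quantifier, a name or version is not given in the sources used here. The lowest deposited FPKM was 0.31.

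Counts were rounded to whole numbers. Features whose mean FPKM reached 1 were kept (42619), scaled by TMM and fitted in edgeR 4.0.16 (R 4.3.3) with all 5 groups (10 residual degrees of freedom). The 13 comparisons were the F test, the 10 pairs of groups, the 3 stimulus against the 2 contrast groups, and audiovisual minus acoustic minus visual plus the mean of the contrast groups. Benjamini-Hochberg adjustment ran over all features within a comparison, with a threshold of 0.05. The standard error is approximate, from the log2 fold change and the root of its F statistic. Counts were also summed per symbol.

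Log2 CPM used a prior count of 2. Alternatives were DESeq2 1.42.0, limma 3.58.1 on log2(FPKM + 1) and log2(FPKM + 0.1), median-of-ratios scaling, other filters, sums per symbol, only the 2 groups compared, a replicate block and leaving out each library. Named features are the members, up to 3 of the smallest F test p of each list (some items are not reported here) and the 3 symbols most like each member. The members and lists were chosen with earlier results of these data known.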

Additional observations from a re-analysis of the deposited data

How the results depend on the processing

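No member passed an adjusted p of 0.05 in any of 496 values recomputed under the alternatives. Some of these values were F tests, which have no direction, and 6 of the others changed direction. These were SRD5A1 for dark contrast against acoustic (-0.0114) and for the stimulus against the contrast groups (0.00094), both without dark contrast 1, GPER1 for the stimulus against the contrast groups without dark contrast 1 (0.000403), dark contrast 3 (0.00197) or blank contrast 2 (0.0717), and the HSD17B12 sum for the same contrast without blank contrast 2 (0.00413). Among correlations, CYP19A1 with GPER1 turned (Pearson r) without dark contrast 1 (0.0287), acoustic 1 (0.0680) or audiovisual 1 (0.0642), and SRD5A1 with GPER1 (Spearman rho) without dark contrast 1 (-0.0769), blank contrast 1 (-0.0505) or blank contrast 2 (-0.0242). The cause was not tested. With each library left out in turn, these values ran from -0.0114 to 0.778 (SRD5A1, dark contrast against acoustic), and for the stimulus against the contrast groups from -0.475 to 0.00094 (SRD5A1), -0.0996 to 0.0717 (GPER1) and -0.225 to 0.00413 (HSD17B12 sum). The correlations ran from -0.275 to 0.0680 and from -0.0769 to 0.235.

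Of the 12 correlation values 0 passed, and 1 passed with median-of-ratios scaling, the rho of SRD5A1 and HSD17B12 (0.686, adjusted p = 0.0386); leaving out each library in turn gave 0 to 1 (0.692 without dark contrast 2 and 0.785 without visual 3). The permutation p of the HSD17B12 share ran from 0.0188 to 0.0553 with a library left out, and was 0.0287 on counts.

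Over all features edgeR called 0 in each comparison. DESeq2 called 206 in the test over all groups (149 on symbol sums), 35 for acoustic against dark contrast, 33 acoustic against blank contrast, 36 visual against dark contrast, 27 visual against blank contrast, 30 audiovisual against dark contrast, 32 audiovisual against blank contrast, 27 acoustic against visual, 35 audiovisual against acoustic, 20 audiovisual against visual, 38 dark against blank contrast, 17 stimulus against contrast groups and 46 audiovisual against the sum of its parts. With limma on log2(FPKM + 0.1), 1 was called in the test over all groups (features and symbol sums) and against blank contrast for acoustic, visual, audiovisual and dark contrast. With only the 2 groups fitted, 1 was called for acoustic against dark contrast and 1 for audiovisual against visual. Leaving out each library gave 0 to 2 calls in the test over all groups, visual against dark contrast and audiovisual against dark contrast, and 0 to 1 in the others. The replicate block called 0 in each comparison. Deviations of same-numbered libraries correlated at -0.035 to 0.0429 over 30 pairs (median 0.0034). Those of libraries with other numbers correlated at -0.0686 to 0.0485 over 60 pairs (median -0.0068). Of 15 libraries, 7 correlated best with their own number. Whether the sample numbers pair the libraries is not decided by these values, as the ranges overlap. At 38 to 156 counts per library, CYP19A1 is the member whose levels carry the most counting error, and 3 libraries a group limit all comparisons.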
